A study of Oryza sativa with 8 samples.

Results

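MYB4, LTI6A, LTI6B and LIP9 are rice genes long associated with low temperature, and their transcripts were followed here in seedlings that overexpress OsTMF and in wild-type seedlings, with and without a day of chilling. The genes were taken through their symbols and synonyms in the probe annotation and the reference gene table (assembly ASM3414082v1, used for names alone). They are LOC4336407 (MYB4), LOC4344028 (LTI6A), LOC4337750 (LTI6B) and LOC4330265 (LIP9, whose synonyms include Dhn1 and Dip1). They held 8 of the 57194 probe sets on the Affymetrix rice array and 4 of its 17905 annotated genes. MYB4 and LTI6B have 2 probe sets each, LIP9 has 3 and LTI6A has 1. Members were picked only among probe sets annotated to 1 gene, and no probe set annotated to several genes lists any of the 4 (0 probe sets). By this choice the annotation cannot show whether single probes of the 8 also match other genes.

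The 8 arrays formed 4 groups of 2, all of cultivar Zhonghua 11 at the 4-leaf stage, sampled as shoots and leaves. OE cold and OE normal were seedlings with the genotype OsTMF overexpression, with and without cold stress for 24 h in a chamber at 4 °C under 14 h of light and 10 h of darkness. ZH11 cold and ZH11 normal were wild-type seedlings treated alike. Line OE-24 gave replicate 1 and line OE-29 replicate 2 of each OE group, so each line has a single array per treatment, and differences between lines and between samples of a line cannot be told apart. Nothing in the labels says that the 2 arrays of a ZH11 group came from separate seedlings or extractions, so p-values measure the spread between these samples, which may be technical. The promoter that drives OsTMF is not given in the sources used here, and no probe set was annotated to TMF (0 genes matched), so the level of the overexpressed gene was not analysed here. Normal seedlings were sampled before treatment, so cold cannot be told apart from the extra day of age or from the chamber itself.

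Chilling sets off a transcriptional programme in rice in which DREB1 (CBF) and MYB transcription factors are induced and then act on genes for protective proteins. MYB4 is a factor of the R2R3-MYB class that is induced by low temperature, and in Arabidopsis its ectopic expression raised tolerance to chilling and freezing. LTI6A and LTI6B are small hydrophobic membrane proteins of the PMP3/RCI2 family. LIP9 is a dehydrin, a hydrophilic late-embryogenesis-abundant (LEA) protein held to protect membranes and proteins in dehydrated cells, and in rice its gene has been described as a target of DREB1A.

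Array medians ran from 27.2 to 28.2 signal units, and the median difference between replicates over the tested probe sets was 0.09 in ZH11 normal, 0.09 in ZH11 cold, 0.14 in OE normal and 0.10 in OE cold on the log2 scale. All 7 leaf markers with a probe set were well above the lower limit for testing, with a median mean signal of 4776. The median marker of seed storage had 7.56, of flower 17.8 and of root 54.5, and 3 of 7, 4 of 8 and 3 of 4 of these genes passed the limit. The summed signal of the leaf markers was 23476 to 23718 in OE cold and 23520 to 24548 in ZH11 cold, against 47741 to 48774 in OE normal and 48341 to 49423 in ZH11 normal. That of the 4 root markers was 400 to 439 in OE cold and 366 to 371 in ZH11 cold, against 223 to 317 in OE normal and 211 to 232 in ZH11 normal. The part of these shifts in the cold changes below was not tested, and in whole shoots fewer cells of a type and less RNA per cell cannot be told apart.

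MYB4 rose with cold in both genotypes and rose further in OE, LTI6A fell in both, LTI6B rose in both on each of its 2 probe sets, and LIP9 rose in both on 1 of its 3 probe sets and on a second, dim one in OE. All 8 probe sets passed the filter on dim signals (a mean over the 8 arrays above the 40th percentile, 17.6 signal units), though 2 of the LIP9 probe sets were dim. A probe set is called when its adjusted p is under 0.05 in limma, with the Benjamini-Hochberg adjustment over the 34313 tested probe sets, and changes are differences of log2(signal + 16), which understates the change of dim probe sets. Cold in OE called 7 of the 8 probe sets, 6 higher and 1 lower, where 54.8% of all tested probe sets were called in either direction, 22.9% higher and 31.8% lower. Cold in ZH11 called 6, with 5 higher and 1 lower, where 60.3% of all were called, 26.3% higher and 34.0% lower. Calls were thus common, and the number of members called in each cold comparison says little about them; the sizes of the changes follow. The cold and normal arrays did not overlap for 7 of the 8 in OE (75.1% of all tested probe sets) and 7 of the 8 in ZH11 (83.4%). The comparisons share arrays (OE cold enters cold in OE, OE against ZH11 after cold and the difference in cold response), so they are not independent of each other.

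**Figure D1:**
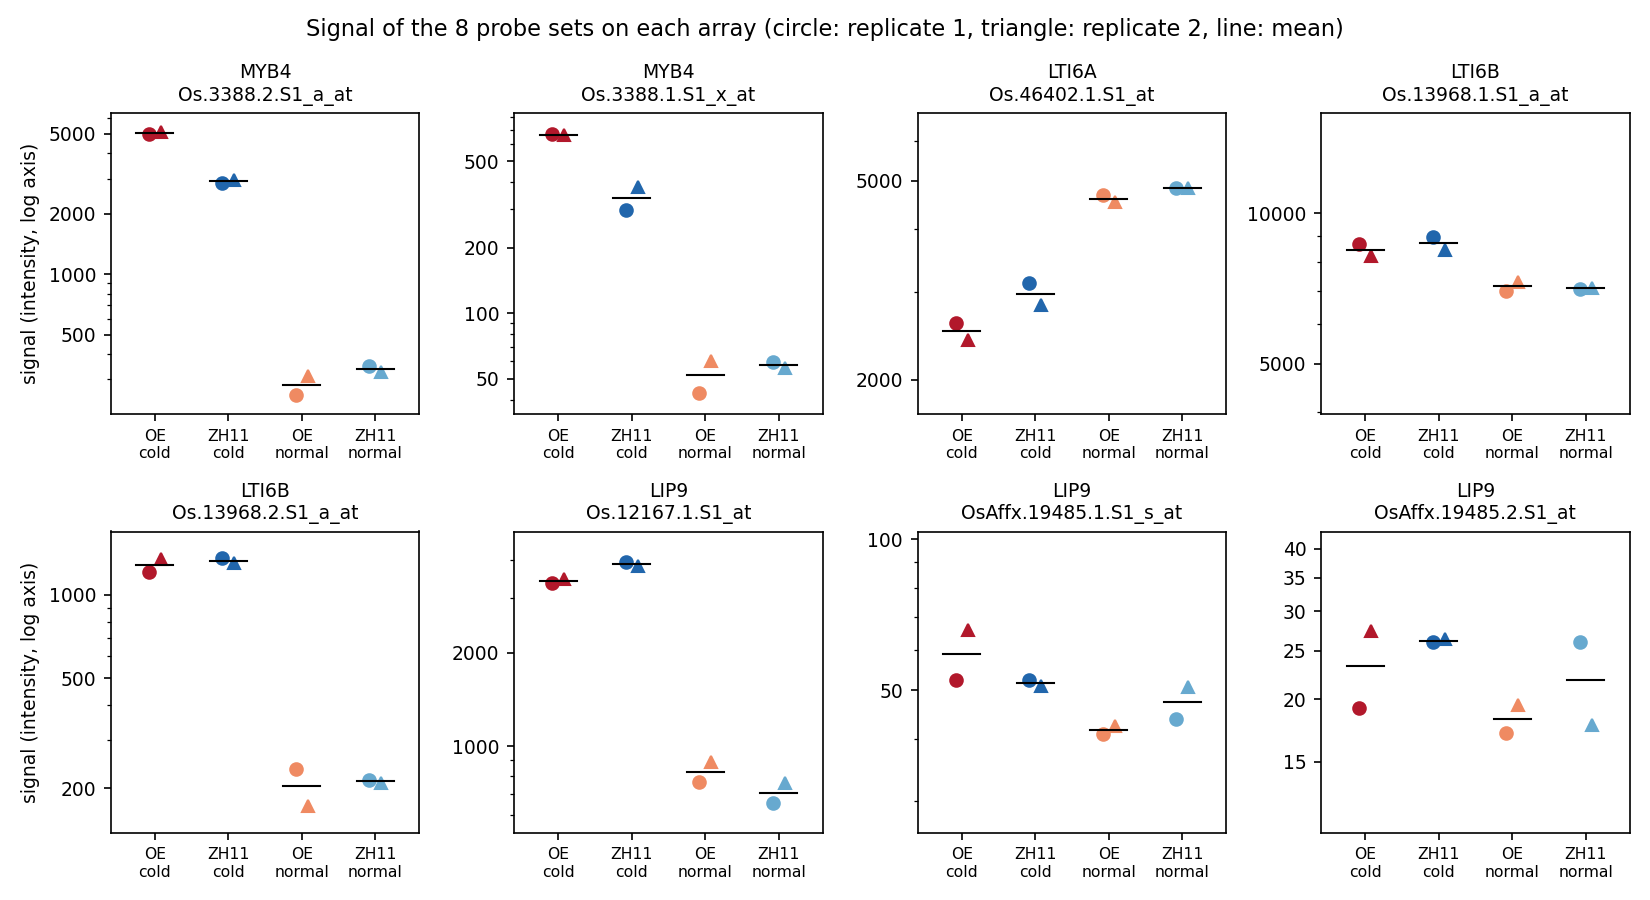
Signal of each of the 8 probe sets (intensity, log axis, a separate range per panel) on every array of OE cold, ZH11 cold, OE normal and ZH11 normal. Circles are replicate 1, triangles are replicate 2 and horizontal lines are the means of 2 arrays. Both MYB4 probe sets are highest in OE cold, with 5004.5 and 5089.7 on the brighter probe set, and the LTI6A probe set is the single one that is lower in cold than in normal arrays of both genotypes.

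MYB4, the transcription factor of the set, had the largest cold response of the 4 genes, judged by the brighter probe set of each. Its brighter probe set read 5004.5 and 5089.7 in OE cold, against 250.8 and 312.7 in OE normal. In ZH11 cold it read 2850.7 and 2948.5, against 325.9 and 349.5 in ZH11 normal. No cold array overlapped with a normal array, and both OE cold arrays lay above both ZH11 cold arrays. The change with cold was 4.10 ± 0.10 in OE (log2 change ± standard error, adjusted p = 5.56e-10 in limma), a 17.1-fold rise on the log2(signal + 16) scale. In ZH11 it was 3.04 ± 0.10 (adjusted p = 2.98e-09), an 8.25-fold rise. Only 75 of the 34313 tested probe sets had a larger rise in OE, and 223 had a larger rise in ZH11. By line, the difference between the cold and the normal array was 4.23 in OE-24 and 3.96 in OE-29.

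The second MYB4 probe set carries the suffix that Affymetrix gives where some probes also match other sequences, so what it measures is less certain. It was dimmer, with 667.4 and 660.6 in OE cold, against 42.8 and 60.5 in OE normal. ZH11 cold arrays had 297.3 and 380.2, against 59.4 and 56.2 in ZH11 normal. The order of the groups after cold was the same as on the brighter probe set. Its change with cold was 3.34 ± 0.15 in OE (adjusted p = 2.86e-08) and 2.26 ± 0.15 in ZH11 (adjusted p = 3.64e-07). With a pseudocount of 1 in place of 16 these changes were 3.68 in OE and 2.52 in ZH11.

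**Figure D2:**
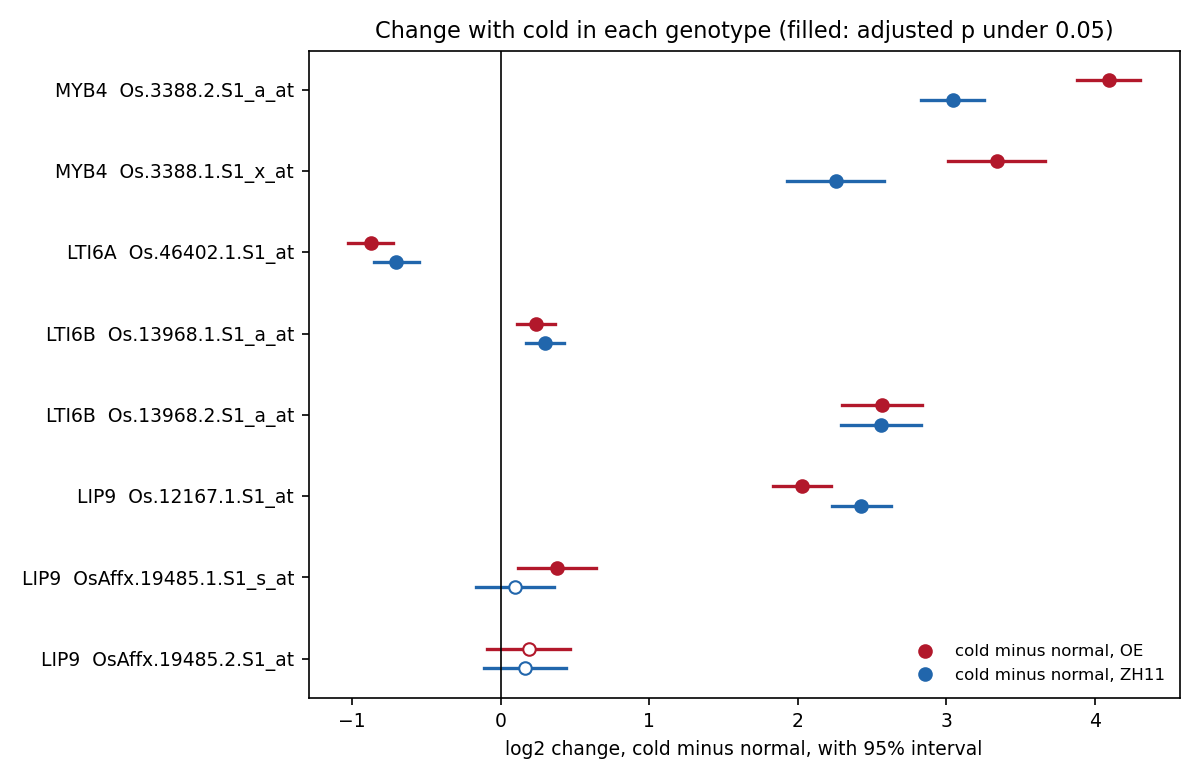
Log2 change with cold (cold minus normal) in OE and in ZH11 for the 8 probe sets, with 95% intervals from limma and filled points where the adjusted p is under 0.05. Within a gene the probe sets run from the brightest at the top to the dimmest. The MYB4 points of OE (4.10 and 3.34) lie to the right of those of ZH11 (3.04 and 2.26), and LTI6A lies below 0 in both. The 2 dim LIP9 probe sets lie closer to 0 than the brightest one, and the second by brightness is called in OE, at 0.38.

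Between genotypes, MYB4 stood out after cold. Before cold, none of the 8 probe sets was called in OE against ZH11 (0 of 8 in limma, with 2 at an unadjusted p under 0.05), where 1.20% of all tested probe sets were. The groups did not overlap for 4 of the 8, against 34.0% of all. After cold 3 of the 8 were called, the 2 of MYB4 higher in OE and that of LTI6A lower, where 13.1% of all were called, 8.16% higher and 4.95% lower. The OE and ZH11 arrays after cold did not overlap for 5 of the 8, against 61.5% of all.

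On the brighter probe set MYB4 averaged 5047 ± 60.2 in OE cold and 2900 ± 69.2 in ZH11 cold (SD, n = 2 each), a difference of 0.80 ± 0.10 (log2, adjusted p = 0.000835), with a 95% interval of 0.59 to 1.01. Before cold it averaged 282 ± 43.8 in OE normal and 338 ± 16.7 in ZH11 normal (SD, n = 2 each). These arrays did not overlap, as for 34.0% of all tested probe sets. The difference was -0.26 ± 0.10 (95% interval -0.47 to -0.04, unadjusted p = 0.0225 in limma), which did not pass (adjusted p = 0.378). Leaving out an OE normal array gave -0.10 (replicate 1 left out) or -0.41 (replicate 2 left out). From high to low the order was therefore OE cold, ZH11 cold, ZH11 normal and OE normal, and the difference of the last pair was not called. On the dimmer probe set OE was higher after cold by 0.95 ± 0.15 (adjusted p = 0.00312). Before cold that difference was -0.14 ± 0.15 (adjusted p = 0.908).

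The difference in cold response itself, OE minus ZH11, was 1.05 ± 0.13 on the brighter MYB4 probe set (adjusted p = 0.0064) and 1.09 ± 0.21 on the dimmer one (adjusted p = 0.038). These were the 2 of 8 probe sets called, both higher, where 1.13% of all tested probe sets were called, 0.726% higher. A larger difference in the same direction was found for 119 and 108 of the 34313 tested probe sets. Each value is the OE minus ZH11 difference after cold minus that before cold. These were 0.80 and -0.26 on the brighter probe set and 0.95 and -0.14 on the dimmer one, and neither difference before cold was called. Without ZH11 cold replicate 1 the brighter probe set was no longer called, with 1.03 (adjusted p = 0.0606), and in the other 7 fits that left out an array it stayed called. The dimmer probe set was called in 1 of the 8 such fits, that without OE normal replicate 2, and its adjusted p reached 0.192 without ZH11 cold replicate 1, with a value of 0.92.

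**Figure D3:**
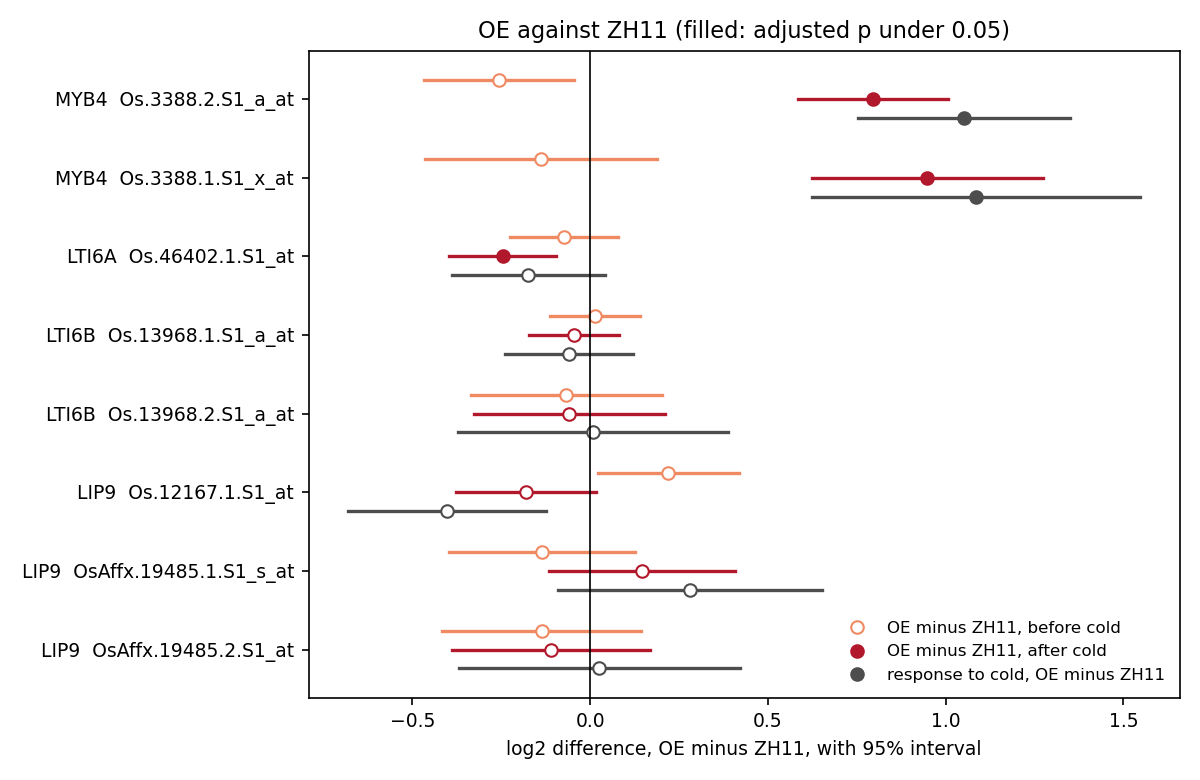
Difference between OE and ZH11 (OE minus ZH11, log2) before cold, after cold, and for the cold change itself, for the 8 probe sets, with 95% intervals from limma and filled points where the adjusted p is under 0.05. Both MYB4 probe sets lie at 0.80 and 0.95 after cold and at 1.05 and 1.09 for the cold change, and LTI6A is the other called probe set, at -0.25 after cold.

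**Figure D4:**
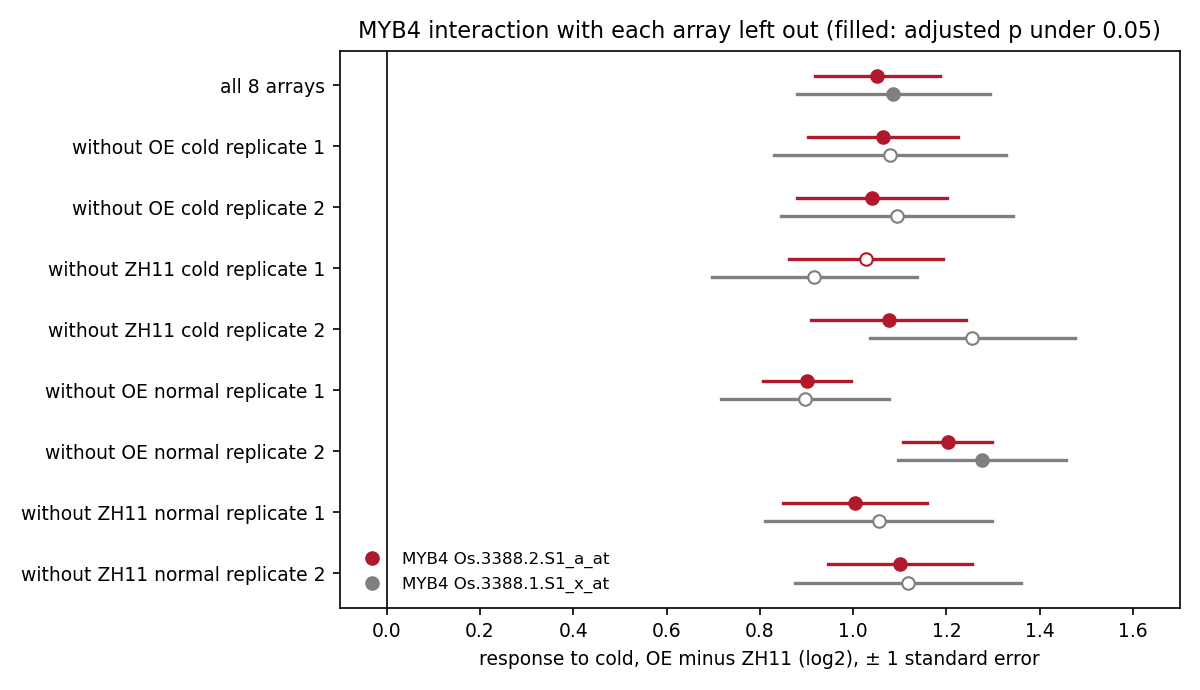
MYB4 difference in cold response (OE minus ZH11, log2, ± 1 standard error) for both probe sets with all 8 arrays and with each array left out, filled where the adjusted p is under 0.05. The brighter probe set, in red, runs from 0.90 to 1.20 and loses its call without ZH11 cold replicate 1, and the dimmer runs from 0.90 to 1.28 with a single filled point among the 8 fits with an array left out.

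LTI6A, of the small membrane proteins, went down. Its probe set read 2600.6 and 2406.1 in OE cold, against 4676.6 and 4533.7 in OE normal. The same probe set read 3128.7 and 2819.6 in ZH11 cold, against 4845.6 and 4840.9 in ZH11 normal. The cold arrays of both genotypes lay below all normal arrays. The change was -0.88 ± 0.07 in OE (adjusted p = 1.57e-06) and -0.70 ± 0.07 in ZH11 (adjusted p = 7.02e-06), or 1.84-fold and 1.63-fold lower. Larger falls were found for 11.6% of all tested probe sets in OE and 18.4% in ZH11.

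After cold LTI6A was lower in OE than in ZH11 by a small margin, with means of 2503 ± 138 in OE cold and 2974 ± 219 in ZH11 cold (SD, n = 2 each) and a difference of -0.25 ± 0.07 (adjusted p = 0.0406). This call was close to the threshold. It was lost without either ZH11 normal array (adjusted p = 0.062 and 0.0617), without ZH11 cold replicate 1 or 2 (0.281 and 0.0597) and without OE cold replicate 1 or 2 (0.0675 and 0.205), and it held without either OE normal array. It was also lost with median centring, with no filter, without a variance trend and in the fit of these 2 groups alone (adjusted p = 0.0510, 0.0529, 0.105 and 0.0561). Before cold the genotypes differed by -0.07 (95% interval -0.22 to 0.08, adjusted p = 0.884). The difference in cold response was -0.17 (95% interval -0.39 to 0.04, adjusted p = 0.46), which did not pass, and -0.10 without ZH11 cold replicate 1.

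LTI6B, the other member of the PMP3/RCI2 family, rose on both of its probe sets, but by very different amounts. The dimmer probe set read 1210.9 and 1343.3 in OE cold, against 234.5 and 172.8 in OE normal. Wild-type seedlings gave 1355.3 and 1302.9 in ZH11 cold, against 213.7 and 210.0 in ZH11 normal. All cold arrays were far above all normal arrays. The change was 2.57 ± 0.12 in OE (adjusted p = 4.59e-08) and 2.56 ± 0.12 in ZH11 (adjusted p = 3.95e-08), or 5.94-fold and 5.90-fold. By line it was 2.29 in OE-24 and 2.85 in OE-29, a gap that comes mostly from OE normal, where OE-29 lay 0.41 below OE-24.

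The brighter LTI6B probe set had signals of 8677.7 and 8198.3 in OE cold, against 7004.0 and 7290.0 in OE normal. In ZH11 cold it had 8969.2 and 8439.8, against 7045.0 and 7099.3 in ZH11 normal. The cold arrays were again all higher, by a small step. The change was 0.24 ± 0.06 in OE (adjusted p = 0.0045) and 0.30 ± 0.06 in ZH11 (adjusted p = 0.00101), or 1.18-fold and 1.23-fold. Its signals were in the upper part of the scale, whose highest values were 14835 to 15744 on the 8 arrays, and whether the brightness or the transcripts matched by each probe set account for the gap between 0.24 and 2.57 was not tested. Both probe sets carry the suffix for probes that match several transcripts of the same gene.

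LTI6B showed no difference between genotypes that passed a test on either probe set. After cold OE against ZH11 was -0.06 on the dimmer probe set (95% interval -0.33 to 0.21, adjusted p = 0.785) and -0.04 on the brighter one (95% interval -0.17 to 0.08, adjusted p = 0.643). Before cold the differences were -0.07 (95% interval -0.34 to 0.20) and 0.01 (95% interval -0.11 to 0.14). The cold responses differed by 0.01 (95% interval -0.37 to 0.39, adjusted p = 0.989) and -0.06 (95% interval -0.24 to 0.12, adjusted p = 0.799). The interval of the probe set with the larger cold change leaves out a difference in cold response of the size seen for MYB4.

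LIP9, the dehydrin gene, rose clearly on 1 of its 3 probe sets. The brightest read 3364.0 and 3464.9 in OE cold, against 767.6 and 886.8 in OE normal. The same probe set read 3945.4 and 3803.9 in ZH11 cold, against 656.1 and 759.5 in ZH11 normal. Cold arrays were all above normal arrays, and OE cold lay below ZH11 cold without overlap. The change was 2.03 ± 0.09 in OE (adjusted p = 2.81e-08) and 2.43 ± 0.09 in ZH11 (adjusted p = 7.31e-09), or 4.08-fold and 5.39-fold. By line it was 2.11 in OE-24 and 1.95 in OE-29.

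Within each treatment the order of the 2 genotypes on this LIP9 probe set was the reverse of that on the brighter MYB4 probe set, but no genotype difference of LIP9 passed. From high to low it was ZH11 cold, OE cold, OE normal and ZH11 normal. After cold the mean was 3414 ± 71.3 in OE and 3875 ± 100 in ZH11 (SD, n = 2 each), a difference of -0.18 (95% interval -0.38 to 0.02, adjusted p = 0.206). Before cold it was 827 ± 84.3 in OE normal and 708 ± 73.1 in ZH11 normal, a difference of 0.22 (95% interval 0.02 to 0.42, adjusted p = 0.438). With 1 array left out that value ran from 0.12 to 0.32. It was 0.12 without OE normal replicate 2 and also without ZH11 normal replicate 1. The cold response was smaller in OE by 0.40 on the log2 scale, with a value of -0.40 ± 0.13 and an adjusted p of 0.181 (unadjusted p = 0.00921), so this pattern did not pass over all probe sets.

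The other LIP9 probe sets were dim and gave another picture. The brighter of this pair, whose suffix marks probes shared by several transcripts, read 52.4 and 65.9 in OE cold, against 40.8 and 42.3 in OE normal. Wild-type seedlings gave 52.3 and 51.0 in ZH11 cold, against 43.8 and 50.8 in ZH11 normal. It rose by 0.38 ± 0.12 in OE (adjusted p = 0.0189), a call lost without OE normal replicate 1 (0.36, adjusted p = 0.0602) and without OE cold replicate 2 (0.25, adjusted p = 0.157). In ZH11 the value was 0.10 ± 0.12 (adjusted p = 0.492). The cold responses of the 2 genotypes on this probe set differed by 0.28 ± 0.17, which did not pass (adjusted p = 0.492), and by 0.15 without OE cold replicate 2.

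The dimmest LIP9 probe set read 19.2 and 27.4 in OE cold, against 17.1 and 19.5 in OE normal. ZH11 cold arrays had 26.0 and 26.4, against 26.0 and 17.8 in ZH11 normal. Cold and normal arrays overlapped or touched in both genotypes, all readings were at or below the array medians, and no comparison passed. The changes with cold were 0.19 ± 0.13 in OE (adjusted p = 0.232) and 0.16 ± 0.13 in ZH11 (adjusted p = 0.282). The genotype differences of the 2 dim probe sets lay between -0.14 and 0.15 on the log2 scale. At these dim signals the pseudocount weighs on the sizes. With 1 in place of 16 the cold change of the dimmest probe set was 0.31 ± 0.21 in OE and 0.27 ± 0.21 in ZH11, and that of the second was 0.49 ± 0.15 in OE and 0.13 ± 0.15 in ZH11. With 1 array left out the dimmest probe set ran from 0.038 to 0.34 in OE and from 0.0068 to 0.32 in ZH11.

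Genes of the same pathway give the setting. Of 32 symbols of cold-associated transcription factors, 15 genes had a probe set and all 15 were tested, each by its brightest probe set. With cold 9 rose and 2 fell in OE, with a median of 0.43, and 9 rose and 3 fell in ZH11, with a median of 0.41, where the median of all tested probe sets was -0.01 and 0.01. Of all tested probe sets 22.9% rose and 31.8% fell in OE, and 26.3% rose and 34.0% fell in ZH11. DREB1B rose most in both, by 5.18 ± 0.14 in OE (adjusted p = 1.18e-09) and 2.59 ± 0.14 in ZH11 (adjusted p = 8.07e-08), and MYBAS2 fell most, at -1.34 in OE and -1.08 in ZH11. MYBS3, a single-repeat MYB factor that acts in a later phase of the cold response of rice, rose by 1.96 ± 0.07 in OE and 1.98 ± 0.07 in ZH11, and its dimmer probe set had lower means in cold (228 in OE cold and 217 in ZH11 cold, against 356 in OE normal and 388 in ZH11 normal). MYBS2, among the 3 that fell in ZH11, changed by only -0.23 there. Its second probe set by brightness had a higher mean in ZH11 cold (325.15, against 243.4 in ZH11 normal) and its dimmest a lower mean (27.25, against 50.55).

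In OE against ZH11 these factors gave 0 of 15 called before cold in limma (4 at an unadjusted p under 0.05), where 1.20% of all tested probe sets were called. After cold 7 were higher and 2 lower, where 8.16% of all were higher and 4.95% lower, with a median of 0.27 against 0.01 for all tested probe sets. MYBS2 was among the 7, at 0.27 on its brightest probe set. Its second probe set by brightness had a lower mean in OE cold (277.4) than in ZH11 cold (325.15), and its dimmest a higher mean (35.85 against 27.25). DREB1A was higher after cold by 2.64 ± 0.14 (adjusted p = 1.03e-05), with means of 961 in OE cold and 141 in ZH11 cold, and MYBAS1 was lower, at -0.82 ± 0.11 (adjusted p = 0.00151). The difference in cold response was called for 4 of the 15, all higher in OE, where 0.726% of all were. They were DREB1A at 2.69, DREB1B at 2.59, DREB1G at 2.27 and the MYB factor gene MYB2 at 1.94 (adjusted p = 0.000612, 0.000612, 0.0215 and 0.00288). MYB4, at 1.05 and 1.09, had the same direction and a smaller size. LIP9, described as a DREB1A target, had -0.40 on its brightest probe set and 0.28 and 0.03 on the 2 dim ones, and none of these passed. A link between the DREB1A and LIP9 values was not tested.

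**Figure D5:**
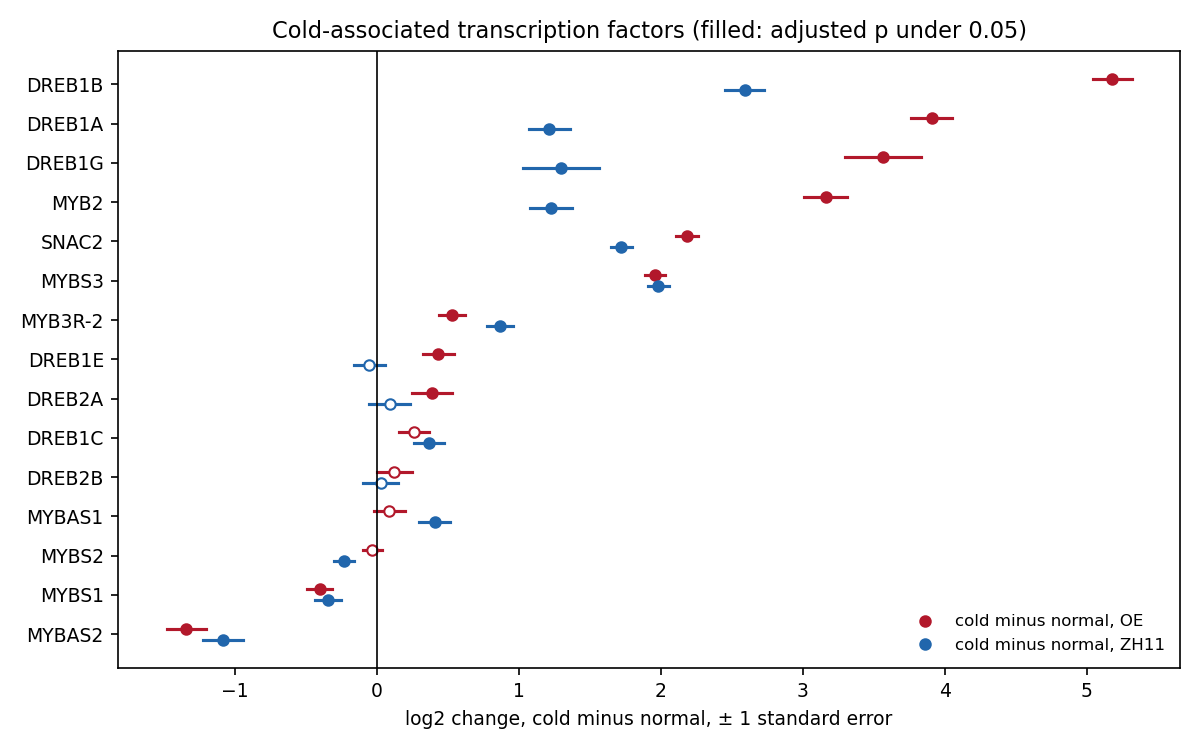
Log2 change with cold in OE and in ZH11 (± 1 standard error) for the 15 cold-associated transcription factor genes, ordered by the change in OE, filled where the adjusted p is under 0.05. DREB1B, DREB1A, DREB1G and MYB2 have larger changes in OE (5.18, 3.91, 3.57 and 3.16) than in ZH11 (2.59, 1.22, 1.30 and 1.23), while the 2 MYBS3 points almost coincide at 1.96 and 1.98.

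A list of 28 symbols of LEA and dehydrin genes included DHN1, a synonym of LIP9, which was left out of it as a member. Of the other genes on the list, 7 had a probe set and all were tested. In OE 1 of 7 rose with cold, RAB25 by 0.72 ± 0.17 (adjusted p = 0.00468), and 0 fell, where 22.9% of all tested probe sets rose and 31.8% fell. No other of the 7 had an unadjusted p under 0.05 there. In ZH11 RAB25 rose by 0.77 ± 0.17 (adjusted p = 0.00292) and the dehydrin gene RAB16C fell, at -0.56 ± 0.12 (adjusted p = 0.00181), where 26.3% of all rose and 34.0% fell. RAB25 was dim, with means of 47.9 in OE cold and 46.25 in ZH11 cold, against 22.15 in OE normal and 20.55 in ZH11 normal. The pseudocount therefore weighs on the size of its change. The medians over the 7 genes were -0.02 in OE and -0.01 in ZH11. RAB16C was the 1 gene called between genotypes, after cold, with means of 314 in OE cold and 174 in ZH11 cold, a difference of 0.80 ± 0.12 (adjusted p = 0.00242), where 13.1% of all were called. In limma 0 of 7 were called before cold (0 at an unadjusted p under 0.05), against 1.20% of all, and 0 of 7 for the difference in cold response (1 at an unadjusted p under 0.05), against 1.13% of all, so that these counts say little about the list. A list of 21 symbols of the PMP3/RCI2 family included LTI6A and LTI6B, which were left out of it as members. None of its other symbols was matched by name to another gene with a probe set (0 genes). Probe sets without an annotated gene (34663 of 57194) could not be searched by name, so other genes of the family may have been missed.

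The genes whose pattern over the 8 arrays was most like each member were taken from 2186 other tested genes with a name, by the smallest Euclidean distance between log2 profiles centred on their own means. For MYB4 they were WRKY24, a WRKY transcription factor (distance 0.476), the phosphatase gene PP2C32 (0.522) and the calmodulin-like gene CML31 (0.543), with Pearson correlations of 0.997, 0.997 and 0.995 over the 8 arrays. WRKY24 rose by 3.72 in OE and 3.12 in ZH11. For LTI6A they were the expansin gene EXPB6 (0.139), the metal transporter gene MTP1 (0.206) and the catalase gene CAT-B (0.209), with correlations of 0.993, 0.985 and 0.985. EXPB6 changed by -0.77 in OE and -0.74 in ZH11.

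For the brighter LTI6B probe set the nearest genes were IAR, also listed as ILL1 (0.103), the 14-3-3 gene GF14F (0.107) and NMCP1 (0.128), with correlations of 0.973, 0.968 and 0.949. For the brightest LIP9 probe set they were the kinase gene CDKG-1 (0.257), the homeobox gene hox32 (0.339) and CLPD1 (0.388), with correlations of 0.997, 0.995 and 0.993. CDKG-1 rose by 2.02 in OE and 2.45 in ZH11, against 2.03 and 2.43 for LIP9. The 8 arrays fall into cold and normal, so correlations this high describe mainly that split.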

How the data were processed

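Per the labels' protocols, total RNA was extracted with TRIzol and labelled as biotinylated cRNA for Affymetrix arrays. The authors deposited a linear intensity for each probe set. How probes were summarised and arrays scaled, and with which software, is not given in the sources used here, and every column was used (0 unmapped).

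Values were taken to log2(signal + 16) without further scaling. Probe sets with a mean over the 8 arrays above the 40th percentile were tested with limma 3.58.1 (lmFit, eBayes with a trend) in R 4.3.3. One model of 4 group means had 4 residual degrees of freedom, and 5 two-sided comparisons were adjusted by Benjamini-Hochberg over 34313 probe sets, with calls at an adjusted p under 0.05. The number of arrays limits the precision. The procedure was tested on simulated data.

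Members are all probe sets annotated to the 4 genes. Like patterns are the 3 nearest named genes (name or synonym other than a clone or locus identifier, 2432 genes). The members and lists were chosen with earlier results of these data known. The replicate number pairs the OE arrays, since per the labels it marks the line. Deviations from the group means correlated at 0.128 over probe sets between same-numbered OE arrays and at -0.0202 in ZH11. Alternatives changed the pseudocount, scaling, filter, variance trend, replicate block, arrays fitted, or left out 1 array.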

Additional observations from a re-analysis of the deposited data

Results flagged for a closer look

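The cold change of MYB4 differed between genotypes by the test of the difference itself in limma, the response in OE minus the response in ZH11. It was 1.05 on the brighter probe set (adjusted p = 0.0064, range 0.00239 to 0.0606 over 17 alternatives). It was 1.09 on the dimmer probe set (adjusted p = 0.038, range 0.0216 to 0.192 over 17 alternatives). With groups of 2 arrays, no search for single outlying arrays was made.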

How the results depend on the processing

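Of the 40 member results (8 probe sets in 5 comparisons), 28 kept their direction and their side of the threshold in every alternative that gave them a value, and no called result changed direction (0 of 14 reversals). The filter at the 60th percentile left out the 2 dim LIP9 probe sets. Calls were lost 22 times, for 4 results: the dimmer MYB4 probe set in the difference in cold response, where a pseudocount of 1 gave an adjusted p of 0.0552 and no variance trend gave 0.0533, and LTI6A after cold, the second LIP9 probe set by brightness in OE and the brighter MYB4 probe set in the difference in cold response, as given in the report. The cause was not tested. Reversals touched 8 results near 0. With a pseudocount of 64 the difference in cold response of the dimmer LTI6B probe set was -0.0032. With 1 array left out it ran from -0.20 to 0.21, that of the dimmest LIP9 probe set from -0.13 to 0.18, and these OE against ZH11 differences changed sign: before cold the dimmest LIP9 probe set from -0.29 to 0.020, the brighter LTI6B probe set from -0.014 to 0.044, the dimmer LTI6B probe set from -0.27 to 0.14 and the dimmer MYB4 probe set from -0.33 to 0.052, and after cold the dimmest LIP9 probe set from -0.26 to 0.040 and the dimmer LTI6B probe set from -0.13 to 0.015.

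Over the whole table, the number of probe sets called in OE against ZH11 before cold was 411, with 226 in the fit of these 2 groups alone and 152 (without ZH11 normal replicate 1) to 835 (without OE normal replicate 1) with 1 array left out. After cold it was 4500, with 1147 to 6323, the lowest without ZH11 cold replicate 1. For the difference in cold response it was 388, with 71 to 477, the lowest again without ZH11 cold replicate 1. With the line as a replicate block within OE the brighter MYB4 probe set had a difference in cold response of 1.05 (adjusted p = 0.00281) and 544 probe sets were called, and with the replicate block over all arrays the adjusted p was 0.0096. Neither block changed a member's call (0 changes).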
